A study of Danio rerio with 6 samples.

Results

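Keratins are the intermediate filament proteins of epithelial cells. A type I keratin pairs with a type II keratin, and the pairs assemble into a network that joins desmosomes and hemidesmosomes and lets an epithelium bear mechanical stress. In the zebrafish embryo the enveloping layer gives rise to the periderm, the outer cell layer of the skin, and below it lies the basal epidermis, with the periderm keratins among the most abundant transcripts of the early skin. The gene set examined here was listed by name, with earlier results of these data known. It holds 10 such epidermal and periderm keratin genes of 31484 genes counted. Of these, 8 were found under their current symbols. The other two were found under older names listed by RefSeq, krt18 as krt18a.1 and krtt1c19e as krt1-19e.

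The 6 RNA-seq libraries came from whole zebrafish (Danio rerio) embryos collected 22 hours post fertilization, 3 of wild-type genotype (synpo2 wt/wt) and 3 of the homozygous synpo2 mutant (synpo2 -/-), with no further allele, strain or treatment given in the labels. synpo2 encodes synaptopodin-2, which binds actin at the Z-disc of muscle. The labels give neither the lesion nor the number of embryos per library. The design text calls the replicates biological, and p-values here measure the spread between these libraries. Because whole embryos were used, fewer epidermal cells and less keratin RNA per cell cannot be told apart.

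Library totals ran from 32714170 to 142789686 counts, and wild type replicate 1 held 4.26 times the mean of the other libraries. synpo2b, the synpo2 copy read here, was at 3.96, 3.91 and 6.09 CPM in wild type and at 1.71, 1.58 and 1.515 CPM in mutants. Its adjusted p was 0.15 by edgeR. CPM are counts scaled to library size with TMM factors (edgeR's cpm). Yolk syncytial layer markers stood apart in mutant replicate 1, where the 12 measured genes summed to 19563 CPM against 3050 to 8419 CPM in the other libraries. The 5 measured hatching gland markers summed to 404 CPM in mutant replicate 3 and to 718 to 1226 CPM elsewhere. The 11 measured fast skeletal muscle markers summed to 2459 to 4254 CPM in wild type and 1133 to 2326 CPM in mutants, and all of them were lower in mutants (median log2 fold change -1.38), with 11 at an unadjusted p under 0.05, where 6.83% of all genes tested were lower at that threshold, and 0 past an adjusted p under 0.05 by edgeR. None of the genes summed for these 3 lists was without counts in any library. The part of these differences in the keratin values was not tested.

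No keratin of the 10 was called between the genotypes by edgeR's quasi-likelihood test: 0 passed an adjusted p under 0.05, where 0.0735% of the 20415 genes tested passed. At an unadjusted p under 0.05, 3 of the 10 passed (krt1-19e, cyt1l and krt91), all lower in mutants, against 6.83% of all genes in that direction, and 0 passed in the other direction, against 4.39%. The count changed with the libraries used. It was 1 without wild type replicate 1 (cyt1l), 1 without wild type replicate 3 (krt1-19e) and 1 without mutant replicate 2 (krt1-19e). It was 2 without mutant replicate 1 or 3, and 4 without wild type replicate 2, which added cyt1. The number of all genes at that unadjusted p, in either direction, changed as well. Without wild type replicates 1, 2 and 3 in turn it was 2773 of 20800, 3003 of 20753 and 1443 of 20839. Without mutant replicates 1, 2 and 3 in turn it was 1625 of 20850, 1184 of 20939 and 2856 of 20890. DESeq2 called 1 of the 10 (krt1-19e), where it called 2.21% of genes, and limma-voom called 0. The median log2 fold change was -0.23 over the 10 keratins and 0.01 over all genes tested, with 7 keratins below 0 and 3 above, where 49.1% of all genes were below 0. The CPM ranges of the genotypes were apart for 2 keratins, krt1-19e and cyt1l, both lower in mutants, where 9.63% of all genes were apart in that direction. In the other direction 0 keratins were apart, against 8.45% of genes. Some of the 10 share counted exon bases with one another, so they may not be separate measurements. Of the 5 that share none, 1 (krt1-19e) was lower at an unadjusted p under 0.05 by edgeR, against 6.83% of all genes. Of these 5, 4 were below 0, and 1 (krt1-19e) was apart and lower, against 9.63% of all genes.

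**Figure D1:**
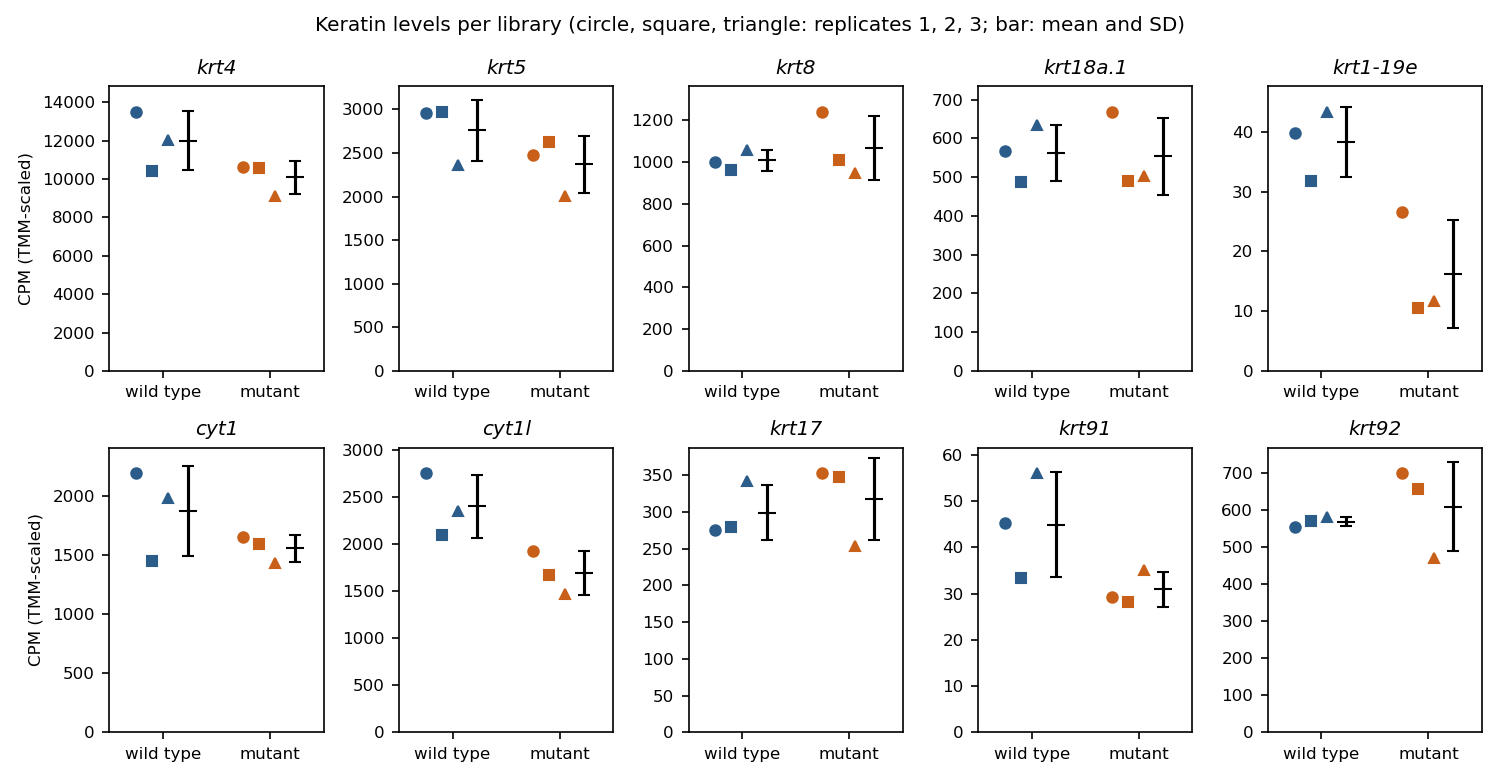
Levels of the 10 keratin genes in CPM, one panel per gene with an axis from 0; circles, squares and triangles are replicates 1, 2 and 3 of wild type (blue) and mutant (orange), and the bar is the mean with its SD over 3 libraries. The genotypes overlap in 8 panels, while krt1-19e and cyt1l lie lower in every mutant library than in any wild-type library.

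The genome positions of these genes bear on how they were counted. On GRCz10, 6 of the 10 lie in a type I keratin cluster on chromosome 19, all on the minus strand. In order of position these are krt1-19e (ENSDARG00000090268, 5422878 to 5429446), krt92 (ENSDARG00000036834, 5433426 to 5448173), cyt1l (ENSDARG00000036832, 5439935 to 5452965), cyt1 (ENSDARG00000092947, 5445934 to 5464258), krt17 (ENSDARG00000094041, 5450844 to 5456086) and krt91 (ENSDARG00000036830, 5462077 to 5464284). The type II genes krt5 (ENSDARG00000058371, 10238226 to 10242488, minus strand) and krt8 (ENSDARG00000058358, 10314656 to 10319318, minus strand) lie on chromosome 23, near the type I gene krt18a.1 (ENSDARG00000018404, 10412881 to 10416784, plus strand). The type II gene krt4 (ENSDARG00000017624, 39310962 to 39315491, minus strand) lies on chromosome 6.

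In the counted annotation, 5 genes of the cluster share exon bases with one another. Of the counted exon bases of cyt1, 59.2% were also listed for krt91, krt92 or cyt1l, and of cyt1l 42.3% were also listed for krt17, krt92 or cyt1. The shares were 35.6% for krt91, 27.4% for krt92 and 25.3% for krt17. The sources used here do not say how reads on such bases were assigned, so the levels of these 5 genes are uncertain. The other five, krt4, krt5, krt8, krt18a.1 and krt1-19e, shared no exon base with any counted keratin of the set. No exon of any of the 10 overlapped a gene outside the set. Reads shared between near-identical keratin copies are a further limit that the files do not resolve.

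**Figure D2:**
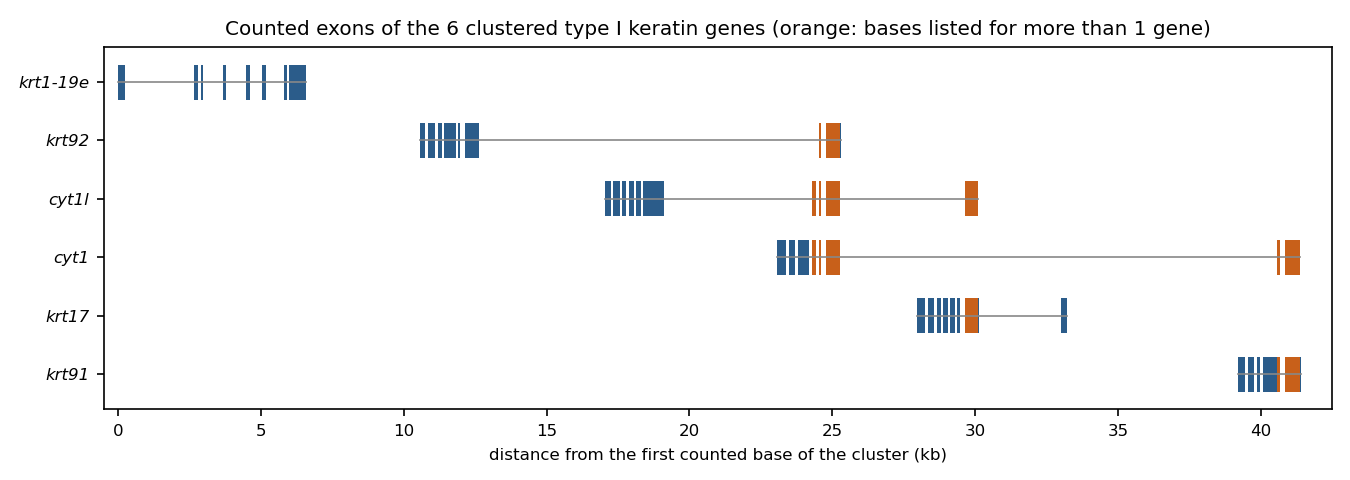
Counted exons of the 6 keratin genes of the chromosome 19 cluster, one row per gene, by distance in kb from the first counted base. Orange marks exon bases listed for more than 1 gene of the cluster, which are found in every row except krt1-19e and make up 59.2% of the counted bases of cyt1.

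Type II keratins are described first. krt4, the main type II keratin of the enveloping layer and periderm, whose promoter is used to mark the superficial epidermis, was the second most abundant of the 20415 genes tested by CPM. Its level was 13503, 10429 and 12050 CPM in wild type replicates 1 to 3 and 10608, 10581 and 9101 CPM in mutant replicates 1 to 3. Mutant replicates 1 and 2 lay within the wild-type range and mutant replicate 3 lay below it. The log2 fold change was -0.25 (SE 0.20, 95% interval -0.71 to 0.22), with an adjusted p of 0.663 by edgeR.

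krt5, a type II keratin of the embryonic epidermis, was at 2955, 2971 and 2358 CPM in wild type and 2481, 2623 and 2004 CPM in mutants. Here too mutant replicate 3 was the lowest library, and the ranges overlapped (log2 fold change -0.22, SE 0.18, edgeR adjusted p = 0.669). krt8, a type II keratin of simple epithelia that is also found in the enveloping layer, was at 1002, 963 and 1060 CPM in wild type and 1241, 1012 and 949 CPM in mutants. The mutant libraries lay on both sides of the wild-type values, with mutant replicate 1 the highest and mutant replicate 3 the lowest of all (log2 fold change 0.08, 95% interval -0.27 to 0.43, edgeR adjusted p = 0.856).

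krt18a.1 encodes keratin 18, the type I partner of keratin 8 in simple epithelia. Its level was 567, 488 and 634 CPM in wild type and 669, 491 and 503 CPM in mutants, with overlapping ranges and a log2 fold change of -0.02 (95% interval -0.42 to 0.38, edgeR adjusted p = 0.972). Per kb of counted length, the krt8 level was 1.15 ± 0.0979 times that of krt18a.1 in wild type and 1.23 ± 0.0713 times in mutants (SD, n = 3 each), and the ratio lay between 1.07 and 1.32 in the 6 libraries. The ratios of the genotypes overlapped for this simple-epithelial pair.

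The basal keratin krt1-19e showed the widest gap between the genotypes among the 10. This type I keratin is known as a marker of basal keratinocytes, and its promoter is used for basal epidermal transgenic lines. Its level was 39.8, 31.8 and 43.4 CPM in wild type and 26.6, 10.5 and 11.7 CPM in mutants, resting on 344 to 4990 counts per library. Every mutant library lay below every wild-type library, with mutant replicate 1 nearest to the wild-type range. Wild type averaged 38.3 ± 5.91 CPM and mutants averaged 16.2 ± 8.98 CPM (SD over 3 libraries). The log2 fold change was -1.24 (SE 0.36, 95% interval -2.09 to -0.39). The adjusted p was 0.326 by edgeR and 0.28 by limma-voom, so the difference did not pass over all genes, while DESeq2 gave an adjusted p of 0.0445. The log2 fold change ran from -1.78 without mutant replicate 1 to -1.004 without mutant replicate 2, and the edgeR adjusted p ran from 0.148 to 0.864 over the 6 fits that left out 1 library.

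The enveloping layer keratins cyt1 and cyt1l are close type I relatives whose listed spans in the cluster overlap. They have 712 counted exon bases in common. cyt1l was at 2748, 2093 and 2352 CPM in wild type and 1930, 1668 and 1469 CPM in mutants. Its 3 mutant libraries were all lower than its 3 wild-type libraries, and the means were 2398 ± 330 and 1689 ± 231 CPM (SD, n = 3 each). The log2 fold change was -0.51 (SE 0.18, 95% interval -0.92 to -0.09), with an adjusted p of 0.377 by edgeR and 0.131 by DESeq2. cyt1 was at 2191, 1452 and 1982 CPM in wild type and 1652, 1595 and 1431 CPM in mutants. Wild type replicate 2 lay among the mutant values of cyt1, and the log2 fold change was -0.27 (SE 0.19, edgeR adjusted p = 0.622).

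The remaining type I genes of the cluster, krt17, krt91 and krt92, did not share 1 direction. krt92 was at 554, 571 and 580 CPM in wild type and 698, 657 and 471 CPM in mutants. Its wild-type libraries were tightly grouped, and mutant replicates 1 and 2 lay above them while mutant replicate 3 lay below (log2 fold change 0.10, SE 0.17, edgeR adjusted p = 0.845). krt17 had the same order of mutant libraries, at 275, 280 and 342 CPM in wild type and 352, 348 and 254 CPM in mutants (log2 fold change 0.09, SE 0.17, edgeR adjusted p = 0.861). krt91, the least abundant of these, was at 45.3, 33.3 and 56.0 CPM in wild type and 29.3, 28.2 and 35.1 CPM in mutants. Mutant replicate 3 and wild type replicate 2 overlapped for krt91 (log2 fold change -0.54, SE 0.20, edgeR adjusted p = 0.4).

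**Figure D3:**
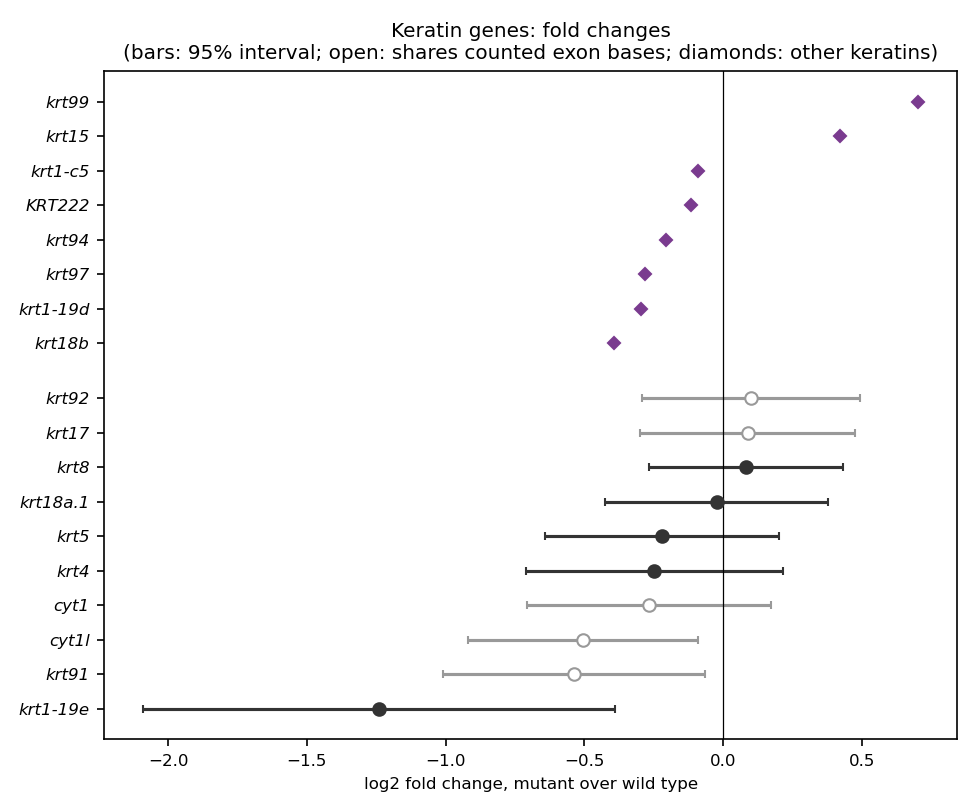
Log2 fold change of mutant over wild type for the 10 keratins, with 95% intervals from the edgeR fit, and, in the upper rows, for the other keratins with a mean of at least 1 CPM (diamonds, no interval drawn). Filled circles share no exon bases with another keratin of the set and open circles do; krt1-19e lies farthest from 0 at -1.24, and 7 of the 10 intervals include 0.

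Between genes, levels are compared per kb of counted length. In wild type krt4 was at 4858 ± 623 CPM per kb, 4.35 times krt5 (1117 ± 141). cyt1l (887 ± 122) and cyt1 (816 ± 166) followed, then krt8 (347 ± 16.9), krt18a.1 (304 ± 39.5), krt92 (269 ± 6.08) and krt17 (175 ± 21.8), all as SD over n = 3. krt91 (25.6 ± 6.48) and krt1-19e (24.3 ± 3.75) were the lowest. The wild-type ranges of neighbours overlapped for krt5 and cyt1l, cyt1l and cyt1, krt8 and krt18a.1, krt18a.1 and krt92, and krt91 and krt1-19e. Within libraries, krt5 was above cyt1l, cyt1l above cyt1 and krt8 above krt18a.1 in 3 of 3 wild-type libraries. krt18a.1 was above krt92, and krt91 above krt1-19e, in 2 of 3. In mutants the order was the same except that cyt1 (678 ± 49.97) came before cyt1l (625 ± 85.5), with overlapping ranges. Per kb, the ratio of cyt1l to cyt1 was 1.07, 1.22 and 1.01 in the wild-type libraries against 0.993, 0.889 and 0.873 in the mutant libraries, with no overlap, though these genes share counted exon bases. That ratio was picked after its values were seen and was not tested.

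The 10 keratins together took 2.09%, 2.13% and 2.17% of all gene counts in wild type and 2.00%, 1.91% and 1.63% in mutants. The means differed by -0.284 percentage points (mutant minus wild type), or by -0.176 without mutant replicate 3. The shares did not overlap, but on the TMM scale they did, at 2.39%, 1.93% and 2.15% in wild type against 1.97%, 1.90% and 1.62% in mutants, so the gap depends on how library size is taken. As percent of all gene counts, the shares also overlapped once krt4 was left out. They were then 0.910%, 0.978% and 0.950% in wild type against 0.923%, 0.845% and 0.715% in mutants. krt4 alone made up 55.6 ± 1.37% of keratin counts in wild type and 55.2 ± 1.16% in mutants (SD, n = 3 each). krt5 made up 12.9% in both genotypes (SD 2.25 in wild type and 0.772 in mutants), and the ranges overlapped for both genes.

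Within the keratin total, which does not depend on library scaling, the shares of cyt1l, krt8 and krt1-19e did not overlap between the genotypes. The shares of krt17, krt18a.1, krt91, krt92 and cyt1 overlapped, as did those of krt4 and krt5. No test was run on these shares, and none was computed for genes outside the set. By CPM, 9.63% of all genes tested were apart and lower in mutants, and 8.45% were apart and higher. Both cyt1l and krt1-19e were already apart by CPM, so their shares are not a separate result. cyt1l made up 11.5%, 10.8% and 11.0% of keratin counts in wild type and 9.80%, 8.77% and 9.05% in mutants, with every mutant library lower. krt8 made up 4.196%, 4.99% and 4.94% in wild type against 6.30%, 5.32% and 5.85% in mutants, with every mutant library higher. krt1-19e made up 0.167%, 0.165% and 0.202% in wild type against 0.135%, 0.0550% and 0.0718% in mutants, again with every mutant library lower. Shares within a total are bound to each other, so a higher share of krt8 does not show a higher level of krt8, and the CPM of krt8 overlapped between genotypes.

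**Figure D4:**
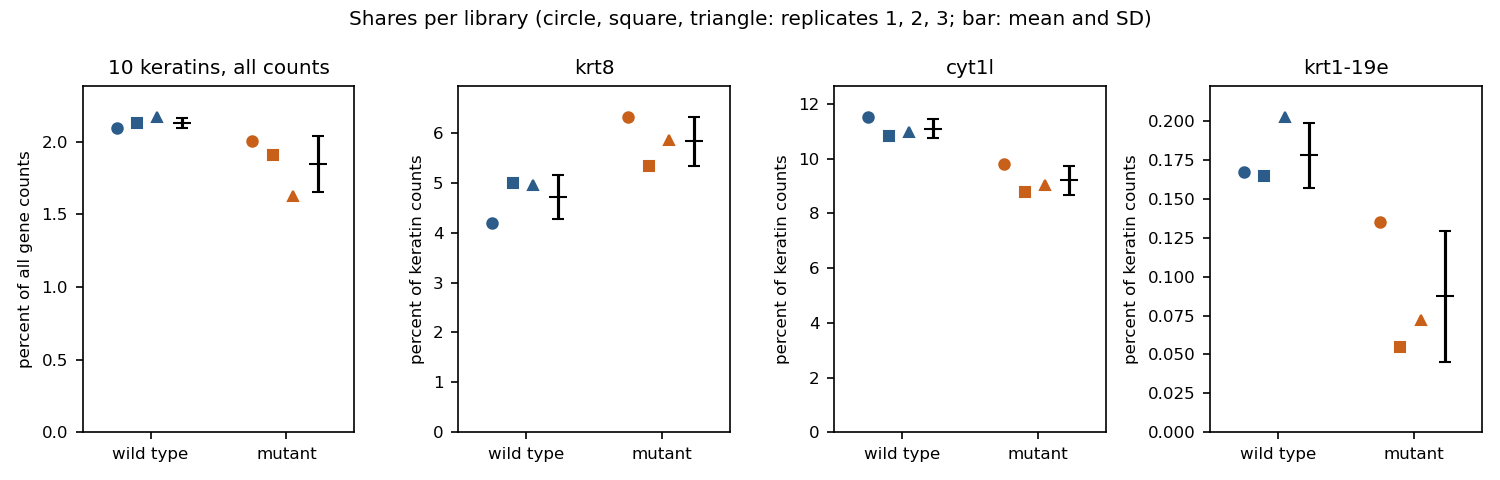
Shares per library, with axes from 0: the 10 keratins as percent of all gene counts, and krt8, cyt1l and krt1-19e as percent of keratin counts; circles, squares and triangles are replicates 1, 2 and 3, and bars are the mean and SD over 3 libraries. The gene panels show only the genes whose share of keratin counts did not overlap between the genotypes. The mutant libraries lie higher in the krt8 panel and lower in the other panels.

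The balance of type I to type II keratins differed between the genotypes by less than the spread between libraries. Summed per kb, the 7 type I genes were at 0.393, 0.372 and 0.421 of the 3 type II genes in wild type and at 0.413, 0.371 and 0.381 in mutants, with overlapping ranges. The log2 ratio was -1.34 ± 0.0889 in wild type and -1.37 ± 0.0802 in mutants (SD, n = 3 each). The difference was -0.03, and it was 0.13 for the genes with no shared exon bases. The balance of basal to periderm keratin, with krt1-19e alone as the basal keratin, differed by more than the SD of either genotype. The log2 fold change of krt1-19e was itself -1.24, so this ratio mostly repeats that 1 gene and does not describe the basal layer as a whole. The level per kb of krt4, cyt1 and cyt1l together was 295, 279 and 241 times that of krt1-19e in wild type and 340, 845 and 657 times in mutants. The log2 ratio of basal to periderm keratin was -8.08 ± 0.151 in wild type and -9.16 ± 0.678 in mutants (SD, n = 3 each), lower in each of the 3 mutant libraries than in any wild-type library. With krt4 alone as the periderm keratin, which avoids the genes with shared exon bases, the difference was -1.12 on the log2 scale. No p is given for these sums and ratios, since the genes were chosen with earlier results known.

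Across libraries the keratins showed patterns that crossed the genotypes. Mutant replicate 3 was the lowest of the 6 libraries for 7 of the 10 genes, and mutant replicate 1 was the highest for 4 (krt8, krt17, krt18a.1 and krt92). Such counts were not made over all genes tested. Among the genes counted, krt17, krt92, cyt1 and cyt1l share exon bases, so they may not be separate measurements. Mutant replicates 2 and 1 were more than 1 unit apart on the log2 scale for krt1-19e (-1.18 and 0.16 from the mean of that gene). The values of the yolk, hatching gland and muscle markers given above also separated mutant replicates 1 and 3, and their part in the keratin pattern was not tested. Without mutant replicate 3, the log2 fold changes of krt92 and krt17 were 0.26 and 0.23, with edgeR adjusted p values of 0.476 and 0.551.

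**Figure D5:**
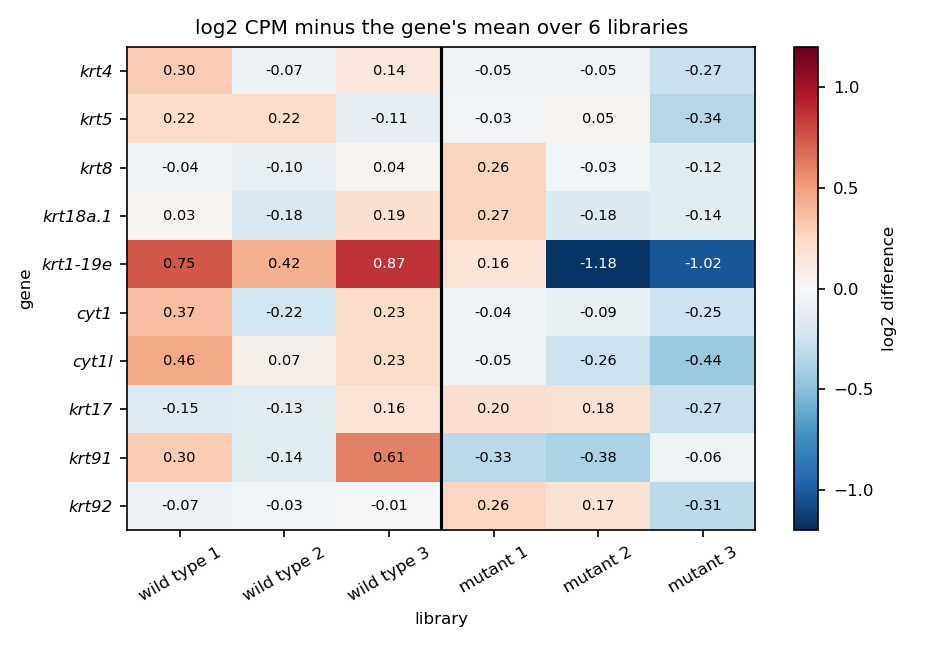
Log2 CPM of each keratin (rows) in each library (columns) minus the mean of that gene over 6 libraries, with wild type left and mutant right of the line; red is above and blue below the mean. krt1-19e spans the widest range, from 0.87 in wild type replicate 3 to -1.18 in mutant replicate 2.

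The genes most like the mean centred profile of the 10 keratins, by root-mean-square difference of log2 CPM over 6 libraries among 12216 genes with a symbol and a mean of at least 5 CPM, were PLA2G6, a phospholipase gene (difference 0.0253), and TNNT2 (ENSDARG00000020610), a cardiac troponin T gene (0.0414). CNOT6L, rangrf, tvp23b, LRRC45, DNAJC27 and nfkbib followed, at 0.0593 to 0.0739. The median over all those genes was 0.284, and the mean keratin profile itself ran only from -0.32 in mutant replicate 3 to 0.23 in wild type replicate 3. Among the keratins krt4 was nearest to the mean profile (0.0926) and krt1-19e farthest (0.63).

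Of 12 other keratin genes listed, 9 were tested and 0 passed the edgeR threshold, with 2 at an unadjusted p under 0.05 (1 higher and 1 lower), where 11.2% of all genes tested passed in either direction. krt18b, a further keratin 18 gene, was at 50.3, 39.4 and 48.4 CPM in wild type and 38.4, 31.0 and 35.8 CPM in mutants, with every mutant library lower (log2 fold change -0.39, edgeR adjusted p = 0.383). CPM ranges were apart in that direction for 1 of the 9 and for 9.63% of all genes tested. krt99 was at 43.3, 63.7 and 31.6 CPM in wild type and 89.1, 83.7 and 52.7 CPM in mutants, with overlapping ranges (log2 fold change 0.70, edgeR adjusted p = 0.437). krt1-19d was at 60.4, 31.8 and 31.3 CPM in wild type and 27.7, 29.4 and 43.6 CPM in mutants, also overlapping. The remaining tested members lay between -0.28 (krt97) and 0.46 (krt98, under 1 CPM in every library) on the log2 scale. Over the 9, the median was -0.12, with 3 above 0 and 6 below.

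Transcription factors that specify the epidermis were not called. Of 15 tested, 0 had an unadjusted p under 0.05 (edgeR), where 11.2% of all genes tested did, and the median log2 fold change was 0.01. grhl3, a grainyhead-like factor of the epidermis, had a log2 fold change of -0.14, and klf17 and ovol1a had 0.20 and 0.34. The libraries did not separate by genotype for any of these 3.

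Keratin filaments are anchored at desmosomes. Of 14 tested desmosome and plakin genes, 0 passed the edgeR threshold, where 0.0735% of all genes tested passed, and the median log2 fold change was 0.08. At an unadjusted p under 0.05 by edgeR, 1 of the 14 was higher, against 4.39% of all genes tested. PERP, a desmosome-associated membrane protein gene, was at 175, 162 and 183 CPM in wild type and 222, 233 and 203 CPM in mutants. Every mutant library was higher for PERP (log2 fold change 0.34, SE 0.10, edgeR adjusted p = 0.338). It was the 1 gene of the 14 with CPM ranges apart, where 8.45% of all genes tested were apart and higher in mutants. PPL (periplakin), dsg2.1 (a desmoglein) and pkp3a (a plakophilin) were at 0.22, 0.44 and -0.17 on the log2 scale, with overlapping ranges.

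At the base of the epidermis, keratins attach to hemidesmosomes. Over all genes tested, 11.2% had an unadjusted p under 0.05 by edgeR and 49.1% had a log2 fold change below 0. Of 18 tested hemidesmosome and basement membrane genes, 0 passed and 1 had an unadjusted p under 0.05 (edgeR), with 11 below 0 and a median of -0.05. That gene was col17a1a, a hemidesmosomal collagen, at 2.19, 1.12 and 2.05 CPM in wild type and 1.17, 0.790 and 0.728 CPM in mutants (log2 fold change -0.998, edgeR adjusted p = 0.394). ITGB4, the hemidesmosome integrin, was at 26.9, 29.9 and 30.8 CPM in wild type and 22.0, 21.5 and 27.6 CPM in mutants (log2 fold change -0.30, edgeR adjusted p = 0.489). For both genes 1 mutant library reached into the wild-type range. FREM2 (ENSDARG00000102626), an extracellular matrix gene of the epidermal basement membrane, and plecb, a plectin gene, were at -0.30 and -0.22 on the log2 scale. FREM2 was matched to more than 1 gene by human-style symbol, and the other entry is not reported here.

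Among 18 tested genes of epithelial adhesion and barrier, 0 passed and 1 had an unadjusted p under 0.05 (edgeR), where 11.2% of all genes tested did. Of the 18, 9 were above and 9 below 0. AQP3 (ENSDARG00000003808), a water and glycerol channel, was at 25.0, 27.3 and 32.8 CPM in wild type and 15.4, 13.0 and 24.4 CPM in mutants, with every mutant library lower (log2 fold change -0.69, edgeR adjusted p = 0.391). The annexin gene anxa1c was at 395, 356 and 349 CPM in wild type and 344, 278 and 208 CPM in mutants, also with no overlap (log2 fold change -0.41, edgeR adjusted p = 0.476). Its relative anxa1b was at 0.20 and the E-cadherin gene cdh1 at -0.28 on the log2 scale, both with overlapping ranges. This AQP3 entry and anxa1c were the 2 genes of the 18 with CPM ranges apart, where 9.63% of all genes tested were apart and lower in mutants. AQP3 was matched to more than 1 gene by human-style symbol, and the other entry is not reported here.

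Other cell types of the embryo that could carry keratin or epidermal RNA were also read. Of 10 tested ionocyte markers, cells that lie within the epidermis, 0 had an unadjusted p under 0.05 by edgeR (median log2 fold change 0.20). Of these markers 9 were above 0, where 49.1% of all genes tested were below 0. The 1 gene below 0 was SLC4A1 (ENSDARG00000012881, log2 fold change -1.04). SLC4A1 and ATP1B1 were each matched to more than 1 gene by human-style symbol, so not every entry need be an ionocyte copy. All CPM ranges overlapped between the genotypes. Over all genes tested, 9.63% were apart and lower in mutants and 8.45% were apart and higher. Of 5 tested hatching gland markers, 0 had an unadjusted p under 0.05 by edgeR (median 0.03). Of 10 tested notochord markers, a tissue in which krt8 is also known to be expressed, 3 had an unadjusted p under 0.05 by edgeR (1 higher and 2 lower, against 11.2% of all genes in either direction) and 0 passed (median 0.01). Of 12 tested yolk syncytial layer markers, 0 passed and 11 were above 0 (median 0.90), where 49.1% of all genes tested were below 0. The mutant libraries did not share this direction. The 12 genes summed to 19563, 8369 and 3050 CPM in mutant replicates 1 to 3. In wild type replicates 1 to 3 they summed to 5005, 8419 and 3855 CPM. apoea was the 1 gene below 0 (log2 fold change -2.02). It was also the only one at an unadjusted p under 0.05 by edgeR, where 6.83% of all genes were lower at that threshold.

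Intermediate filament genes other than keratins, the nuclear lamins among them, were read beside the keratins. Of 13 tested, 0 passed the edgeR threshold, 6 had an unadjusted p under 0.05 (2 higher and 4 lower), and the median log2 fold change was -0.18. Over all genes tested, 4.39% were higher and 6.83% lower at that unadjusted threshold. PRPH, the neuronal filament peripherin, was at 10.4, 7.69 and 5.52 CPM in wild type and 1.92, 2.01 and 2.97 CPM in mutants with every mutant library lower (log2 fold change -1.78, SE 0.31, edgeR adjusted p = 0.15). The nuclear lamin genes LMNA and LMNB2 were at 0.42 and 0.30 on the log2 scale with every mutant library higher, and the neurofilament gene nefma was at -0.89 with overlapping ranges. Of the 13, 1 was apart and lower in mutants and 2 were apart and higher, against 9.63% and 8.45% of all genes tested.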

How the data were processed

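For each library the authors deposited raw counts of reads per Ensembl gene as whole numbers, beside exon positions and counted length. Trimmomatic 0.36, STAR 2.5.2b and GRCz10 are named in the submitters' processing notes. The counting program, strand setting, annotation release and treatment of multiply mapped reads are not named in those sources. Counts were analysed as deposited with edgeR 4.0.16 in R 4.3.3 (filterByExpr, TMM, robust quasi-likelihood F test, two-sided, Benjamini-Hochberg over 20415 genes, called at an adjusted p under 0.05). SE is the log2 fold change over the square root of F, and 95% intervals use the fit's degrees of freedom. log2 CPM used a prior count of 2. DESeq2 1.42.0 and limma 3.58.1 (voom) were alternatives. No pair of libraries agreed within sampling noise.

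The 10 genes and 11 lists were chosen with earlier results of these data known. Names come from a table of gene symbols, and list members were matched by symbol or by the human-style symbol without a final a or b. KRTCAP2, which is no keratin, was set aside by name. The named genes are the 10 keratins, up to 4 per list by smallest p at a mean of at least 1 CPM, the 8 most like the mean profile, and synpo2b; further other keratins were named outside this rule, and some genes are not reported here. Simulated counts for this comparison held 200 changed genes in 20147 tested. They returned 32% of those with a 2-fold change, 88% (4-fold), 98% (8-fold) and 100% (16-fold), and 10 false calls. The changed genes had a mean of at least 1 CPM. Noise was drawn gene by gene, without differences shared by many genes of a library, so these rates need not hold for the real libraries. Exact permutation tests had been planned for the keratin sums and ratios, which are given as values without p. No promoter or protein sequence was used here.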

Additional observations from a re-analysis of the deposited data

How the results depend on the processing

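The number of genes called over the transcriptome was 15, against 44 with no filter on low counts, 8 with at least 1 CPM in 3 libraries and 450 with DESeq2, and it ran from 0 to 16 when 1 library was left out. No keratin was called in 15 of 16 alternatives, and 1 was called with DESeq2. Replicate numbers carry no pairing in the labels, and deviations of same-numbered libraries correlated at -0.23, -0.10 and 0.18. With the replicate number as a block, 0 genes and 0 keratins were called, and the differences of sums and ratios are the same by construction. The log2 fold change kept its sign in all 16 alternatives for 8 keratins. krt8 was at -0.026 without mutant replicate 1 (range -0.026 to 0.16 over left-out libraries). krt18a.1 was at 0.0011 with total-count scaling and at -0.17 to 0.071 over left-out libraries. The mutant minus wild type difference in keratin share of all counts was -0.284 percentage points and ran from -0.363 to -0.176 over left-out libraries, with -0.176 without mutant replicate 3. It was -0.118 without krt4, where the shares of the genotypes overlapped. Since krt4 by itself holds 55.6% of keratin counts in wild type, a smaller difference follows from leaving it out. For the log2 ratio of type I to type II keratins it was -0.03, but 0.13 for genes with no shared exon bases (krt18a.1 and krt1-19e over krt4, krt5 and krt8) and 0.19 for krt18a.1 alone over the same type II genes, both chosen after seeing the data. It ran from -0.0704 to 0.021 over left-out libraries. The cause was not tested. Wild type replicate 1 thinned to the mean depth of the others changed no keratin call. The lowest keratin count in any library was 344, so counting error is small beside the spread between libraries.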
